A study of Mus musculus with 4 samples.

Results

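The genes described here were 4 scavenger receptors (Mrc1, Msr1, Cd36 and Stab1) and 2 receptor tyrosine kinases that recognise dead cells (Mertk and Axl). With them were described 2 secreted ligands of that kinase family (Gas6 and Pros1). All 8 genes were chosen by symbol, with earlier results of these data known, and were found among 31253 gene rows. Single-cell RNA sequencing with 10x 3' chemistry counted unique molecular identifiers (UMIs) of live CD45+ leukocytes sorted from the tumor-bearing hemisphere on day 14 after CT2a, a mouse glioma line, was injected into the brain. The 2 genotypes were wild-type (WT) mice and mice with a germline knockout of CaMKK2 (CaMKK2 KO), a calcium- and calmodulin-dependent kinase kinase, both female, age matched and on a C57Bl/6 background. Each genotype gave 4 mice, told apart by 4 antibody hashtags within 1 10x channel, so that channel and genotype cannot be told apart. The knockout was carried by every cell of the mouse, neurons and leukocytes alike, and both genotypes carried the same tumor without further treatment.

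Macrophages remove dead cells by efferocytosis, in which a dying cell exposes phosphatidylserine on its surface and the phagocyte binds it. The ligands Gas6 and protein S, the product of Pros1, bridge phosphatidylserine to receptor tyrosine kinases of the family of Tyro3, Axl and Mertk. These kinases signal for engulfment and dampen inflammatory responses. Scavenger receptors take up modified lipoproteins, glycoproteins and matrix fragments, and in the brain microglia are the resident phagocytes while monocytes entering a glioma become tumor-associated macrophages (TAMs).

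After removal of hashtag doublets, outlying cells and likely doublets of 1 mouse, 10594 cells were kept, 4998 from WT and 5596 from CaMKK2 KO mice, with 995 to 1653 cells and 11896792 to 20180287 UMIs per mouse. The channels shared 42 cell barcodes. Camkk2 was detected at 31.0 ± 5.55 UMIs per 1000000 UMIs (CPM; SD, n = 4 mice) in WT and at 17.3 ± 4.14 CPM (n = 4) in CaMKK2 KO cells, and the ranges did not overlap, although transcript remained in the knockout. Cells were assigned to classes by detected marker genes, none of which was among the 8 genes. The classes used most were TAM-like (3142 cells), microglia-like (479 cells) and classical monocyte-like (1349 cells), with T cell-like (1583), NK cell-like (1305) and B cell-like (359) cells as lymphoid classes. A mouse gave as few as 21 microglia-like cells and 20 classical monocyte-like cells. No cell was assigned as border-associated macrophage-like, and 3 cells that carried 3 of that list's markers met several gates and were left out.

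Mrc1 (ENSMUSG00000026712, chromosome 2, 14229392 to 14332057, plus strand, GRCm38) encodes the mannose receptor CD206, which binds mannose-bearing glycoproteins. Its mean level over the 8 mice was 92.8 CPM in TAM-like cells, 27.9 CPM in microglia-like cells, 14.9 CPM in type 2 dendritic cell-like cells and 3.43 CPM in classical monocyte-like cells, and TAM-like cells held 87.7% of its UMIs. The TAM-like level exceeded the microglia-like level in 8 of 8 mice.

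Msr1 (ENSMUSG00000025044, chromosome 8, 39581685 to 39642673, minus strand), the class A scavenger receptor for modified lipoproteins, was spread over both large myeloid classes. It stood at 308 CPM in classical monocyte-like and 296 CPM in TAM-like cells, against 72.5 CPM in non-classical monocyte-like and 72.1 CPM in microglia-like cells. The first 2 classes differed by 0.05 on the log2 scale, and 5 of 8 mice had the higher level in classical monocyte-like cells (exact sign-flip permutation test, two-sided p = 0.766).

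Cd36 (ENSMUSG00000002944, chromosome 5, 17781690 to 17888801, minus strand), a receptor for fatty acids, oxidised lipoproteins and thrombospondins, had its highest mean in non-classical monocyte-like cells, at 446 CPM over the 6 mice with at least 10 such cells. It stood at 43.9 CPM in type 1 dendritic cell-like, 33.1 CPM in microglia-like and 9.0 CPM in TAM-like cells. The microglia-like level was above the TAM-like level in 5 of 8 mice (exact sign-flip permutation test, p = 0.398). By genotype these means were 5.05 and 10.7 CPM in WT and 61.2 and 7.32 CPM in CaMKK2 KO mice. In non-classical monocyte-like cells WT mice 2 to 4 had 823, 520 and 555 CPM, and CaMKK2 KO mice 2 to 4 had 182, 398 and 195 CPM. These mice did not overlap between genotypes, but 3 mice against 3 cannot give an exact permutation p below 0.1 and no test was made. The share of all genes apart in this class was not counted. Of the mice left out, WT mouse 1 had 188 CPM (5 UMIs in 3 cells), inside the CaMKK2 KO range, and CaMKK2 KO mouse 1 had 46.9 CPM (3 UMIs in 9 cells).

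Stab1 (ENSMUSG00000042286, chromosome 14, 31139013 to 31168641, minus strand) encodes stabilin-1, which clears modified lipoproteins and matrix proteins. Its mean was 201 CPM in TAM-like, 186 CPM in microglia-like and 86.4 CPM in classical monocyte-like cells. TAM-like and microglia-like levels differed by 0.17 on the log2 scale, with the TAM-like level higher in 5 of 8 mice (exact sign-flip permutation test, p = 0.352), while the microglia-like level was above the classical monocyte-like level in 8 of 8.

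The kinases differed in where they were highest. Mertk (ENSMUSG00000014361, chromosome 2, 128698956 to 128802894, plus strand), the efferocytic kinase of resident phagocytes, stood at 292 CPM in microglia-like, 92.6 CPM in TAM-like and 28.4 CPM in classical monocyte-like cells, and at 3.14 CPM or less elsewhere. Microglia-like cells were above TAM-like cells by 1.69 (SD 0.44) on the log2 scale, in 8 of 8 mice. Axl (ENSMUSG00000002602, chromosome 7, 25757273 to 25788705, minus strand), a related kinase for which Gas6 is the ligand, stood at 252 CPM in TAM-like, 176 CPM in microglia-like, 145 CPM in classical monocyte-like and 62.5 CPM in type 2 dendritic cell-like cells. The TAM-like level was above the microglia-like level in 7 of 8 mice, by 0.53 (SD 0.31) on the log2 scale (exact sign-flip permutation test, p = 0.0156, adjusted p = 0.0938), and microglia-like and classical monocyte-like levels were in that order in 6 of 8 (p = 0.148). It was also counted in T cell-like cells at 14.1 CPM, above NK cell-like cells at 5.48 CPM in 8 of 8 mice.

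Both ligands were highest in microglia-like cells. Gas6 (ENSMUSG00000031451, chromosome 8, 13465374 to 13494490, minus strand) stood at 156 CPM there, at 10.9 CPM in TAM-like cells and at 0.501 CPM or less in every other class. Although they made up 479 of 10594 cells, microglia-like cells held 64.3% of all Gas6 UMIs, and TAM-like cells held 29.7%. The microglia-like level was above the TAM-like level by 3.96 (SD 0.71) on the log2 scale, in 8 of 8 mice. Pros1 (ENSMUSG00000022912, chromosome 16, 62854307 to 62929346, plus strand) stood at 129 CPM in microglia-like cells, and at 17.0 CPM in classical monocyte-like, 16.6 CPM in non-classical monocyte-like and 13.3 CPM in TAM-like cells. The step from microglia-like to classical monocyte-like cells was 2.88 (SD 0.31) on the log2 scale, in 8 of 8 mice.

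**Figure D1:**
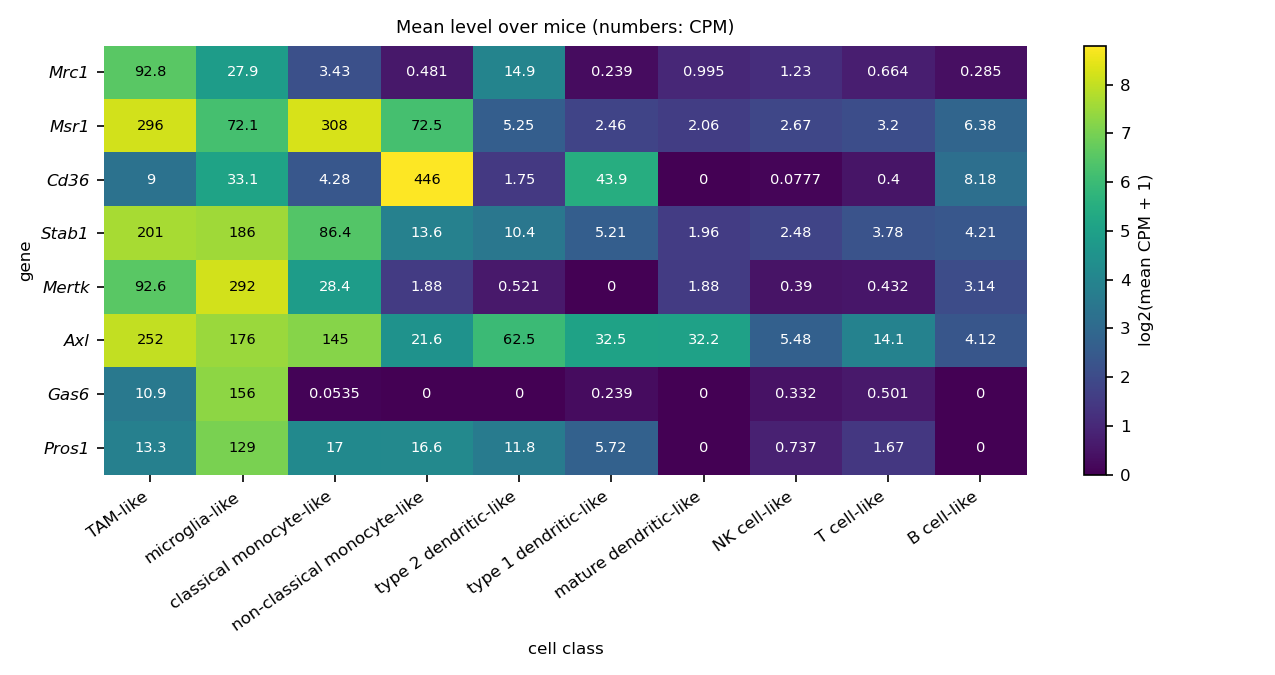
Level of each gene (CPM, mean over mice) in each marker-gated class, with genes as rows, classes as columns and the color giving log2(mean CPM + 1). Mertk, Gas6 and Pros1 were highest in microglia-like cells, Mrc1, Stab1 and Axl in TAM-like cells, Msr1 in classical monocyte-like cells and Cd36 in non-classical monocyte-like cells.

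Over all 8 genes, 72 pairs of neighbouring classes in the order of levels were tested by exact sign flips over mice. None passed an adjusted p of 0.05, and 15 had an unadjusted p under 0.05. The smallest p that 8 mice allow is 0.0078. Given how many pairs reached it, it became 0.0562 after adjustment, so the steps held in 8 of 8 mice did not pass. With 1 more marker required for each class, 13 pairs passed, but fewer classes were ranked and p was adjusted over fewer pairs. Under that gate too few mice had 10 non-classical monocyte-like, type 1 or type 2 dendritic cell-like cells, so these classes were not ranked. The highest class of Cd36 was thus left out of the order. Among the classes still ranked, Msr1 was highest in TAM-like cells and Cd36 in microglia-like cells, while the other 6 genes kept their highest class.

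The genes with the pattern most like each member were ranked by Pearson correlation of log2(CPM + 1) over 48 sums, those of 6 classes in 8 mice, among 11256 genes. These sums share libraries, so r is given as a description. Mertk was most like Trem2 (r = 0.967), a lipid-sensing microglial receptor, and the lysosomal genes Ctsl (0.963) and Grn (0.962). Gas6 was most like Slco2b1 (0.972), Eya4 (0.970) and Smo (0.968), and Axl was most like Pak1 (0.944), Mitf (0.932) and Hmox1 (0.930). Mrc1 was most like Cxcl14 (0.872), Ch25h (0.864) and Htra4 (0.861), and among the members the highest r was that of Stab1 with Mertk (0.922) and the lowest that of Mrc1 with Cd36 (0.305).

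Within TAM-like cells, pooled over the mice of each genotype, the genes were spread unevenly over cells. Of 1778 WT TAM-like cells, 51.6% had no Mrc1 UMI, and the 10% of cells with most held 52.3% of Mrc1 UMIs. In CaMKK2 KO cells these values were 68.5% and 66.8%. Axl was spread more evenly, with 11.6% of WT cells lacking a UMI and 26.6% of UMIs in the top 10% of cells. Gas6 had no UMI in 84.1% of WT and 95.3% of CaMKK2 KO TAM-like cells. WT mouse 1, with 480 of the WT cells, held 2006 of the 3877 WT Mrc1 UMIs and 310 of the 547 WT Gas6 UMIs. Pooled values thus do not tell spread between mice from spread within a mouse. They also depend on the mean level of a gene, and they were not tested between genotypes.

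With every cell thinned to 3000 UMIs, Mertk and Axl were both detected in 14.5% ± 3.12 (SD, n = 4) of WT and 9.76% ± 4.81 (n = 4) of CaMKK2 KO TAM-like cells. In microglia-like cells they were both detected in 11.0% ± 4.53 of WT and 20.4% ± 2.31 of CaMKK2 KO cells. Mertk and its ligand Gas6 were found in the same microglia-like cell in 24.3% ± 2.67 of WT and 15.6% ± 11.4 of CaMKK2 KO cells. These pair shares were not tested between genotypes.

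The genotypes were then compared within each class on UMIs summed per mouse, with edgeR's quasi-likelihood test over all genes and Benjamini-Hochberg adjustment at 0.05. In TAM-like cells 0 of the 8 genes passed, against 2.28% of the 9369 genes tested, and 2 of 8 had an unadjusted p under 0.05, as did 21.9% of all genes. Of the 8 fitted levels, 7 were lower in CaMKK2 KO cells, with a median log2 fold change of -0.45 for the 8 genes and -0.09 for all genes. Axl was among the 7 at only -0.03 (SE 0.15). In microglia-like cells 4 of 7 tested genes were lower, and in classical monocyte-like cells 2 of 5. The share of all genes with a lower fitted level was not counted. Gas6 was the gene whose mice did not overlap between genotypes, 1 of 8 against 13.9% of all genes. DESeq2 on the same sums called 1 of the 8 genes, Gas6, and 6.2% of all genes.

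Gas6 in TAM-like cells was 37.4, 14.9, 9.86 and 9.15 CPM in the WT mice 1 to 4 and 3.27, 2.79, 7.07 and 2.72 CPM in the CaMKK2 KO mice 1 to 4. Every WT mouse was above every CaMKK2 KO mouse, with WT mouse 1 far above the rest. The log2 fold change was -2.10 (SE 0.53, edgeR adjusted p = 0.0759), the means being 17.8 ± 13.3 and 3.96 ± 2.09 CPM (SD, n = 4 each; exact permutation test, two-sided p = 0.0286, the smallest that 4 mice against 4 allow). Without WT mouse 1 it was -1.43. The adjusted p ranged from 0.0013 to 0.0841 over the planned settings that kept all mice. With 1 mouse left out the edgeR adjusted p ranged from 0.0538 to 0.191 and never passed.

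Mrc1 in TAM-like cells was 242, 116, 76.1 and 74.7 CPM in the WT mice and 103, 40.7, 71.2 and 19.0 CPM in the CaMKK2 KO mice. WT mouse 1 was highest and CaMKK2 KO mouse 4 lowest, and the groups overlapped. The log2 fold change was -1.10 (SE 0.51, edgeR adjusted p = 0.243), and it was -0.57 without WT mouse 1.

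Stab1 in TAM-like cells was 416, 216, 171 and 192 CPM in the WT mice and 148, 147, 207 and 111 CPM in the CaMKK2 KO mice. WT mouse 1 again stood highest, and CaMKK2 KO mouse 3 lay inside the WT range. The log2 fold change was -0.70 (SE 0.29, edgeR adjusted p = 0.202) and -0.33 without WT mouse 1.

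The kinases and remaining genes overlapped between genotypes in TAM-like cells. Mertk was 125, 119, 79.3 and 101 CPM in the WT and 86.1, 68.6, 105 and 56.5 CPM in the CaMKK2 KO mice, for a log2 fold change of -0.42 (SE 0.20, adjusted p = 0.258). Axl was 194, 281, 274 and 268 CPM in the WT and 286, 198, 254 and 256 CPM in the CaMKK2 KO mice, at -0.03 (SE 0.15, adjusted p = 0.929). Msr1, the single gene with a higher fitted level in CaMKK2 KO cells, stood at 0.35 (SE 0.22, adjusted p = 0.377), and Pros1 and Cd36 stood at -0.26 (SE 0.16) and -0.49 (SE 0.64).

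**Figure D2:**
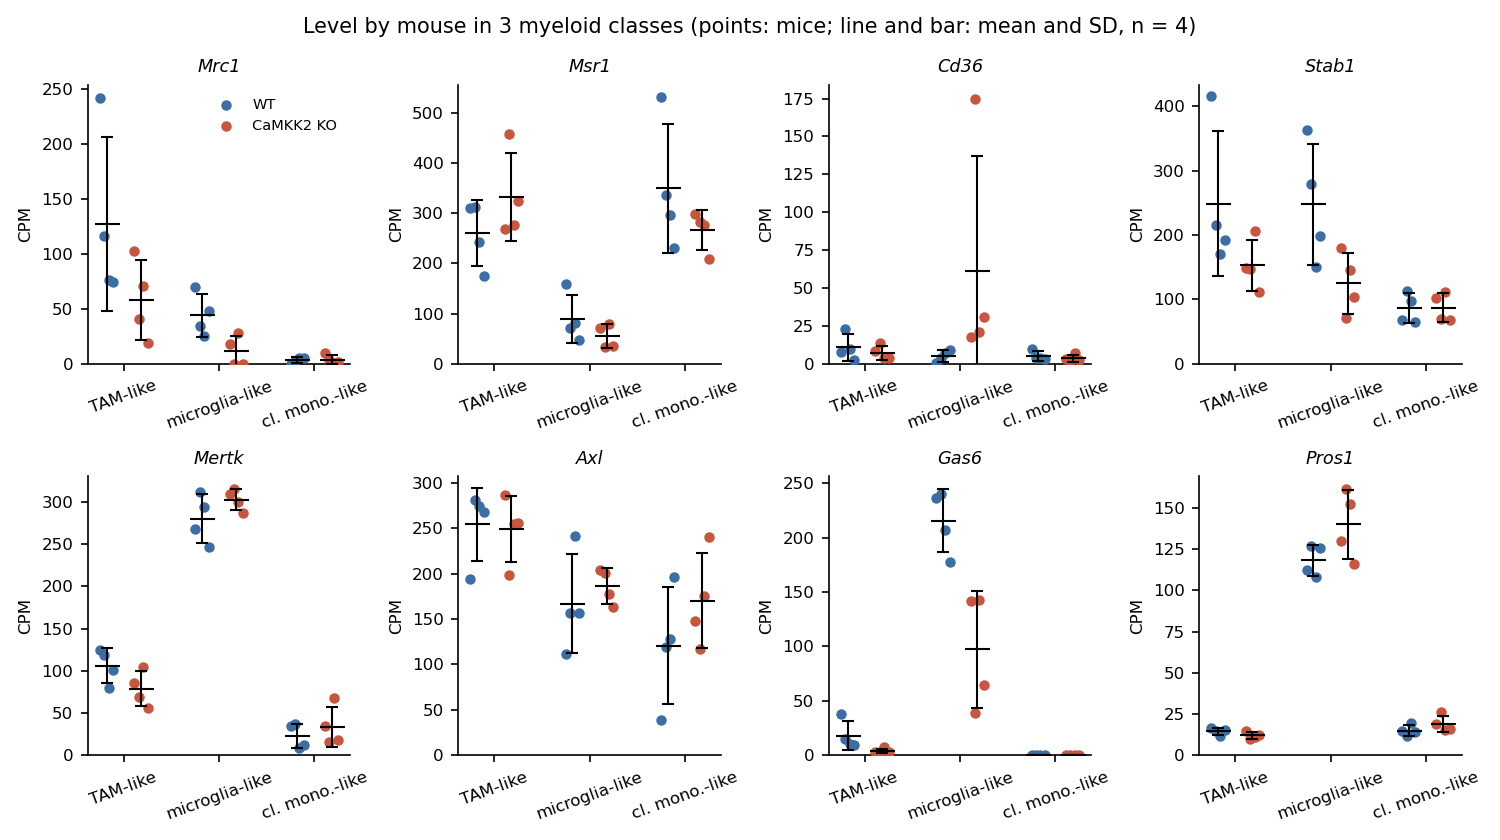
Level of each gene (CPM) in TAM-like, microglia-like and classical monocyte-like cells of each of the 4 WT and 4 CaMKK2 KO mice (points), with mean and SD. Gas6 was lower in every CaMKK2 KO mouse than in every WT mouse in both TAM-like and microglia-like cells, and Cd36 was higher in every CaMKK2 KO mouse in microglia-like cells.

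Marker genes of other classes were also counted in TAM-like cells, where the microglia list was lower in CaMKK2 KO mice without overlap. Higher in CaMKK2 KO mice without overlap were the neutrophil, T cell and non-immune lists. Their ranges in WT and CaMKK2 KO mice were 45.8 to 55.5 and 58.9 to 98.3, 10.2 to 11.9 and 16.8 to 21.6, and 40.5 to 55.5 and 57.4 to 85.3 CPM. The classical monocyte, border-associated macrophage and TAM lists overlapped, the last at 15991 to 17317 and 11682 to 16349 CPM. The summed level of 6 microglia markers ranged from 304 to 416 CPM in the WT and from 120 to 250 CPM in the CaMKK2 KO mice, with 1 of 5 tested, Olfml3, past the threshold. The summed level of 6 classical monocyte markers ranged from 767 to 2730 CPM in the WT and from 2065 to 6630 CPM in the CaMKK2 KO mice, with 0 of 6 past it. Border-associated macrophage markers summed to 1.90 to 11.0 CPM in the WT and to 0 to 4.65 CPM in the CaMKK2 KO mice, with Cd209f at 0. The part of these cells in the Mrc1, Stab1 and Gas6 values was not tested, but TAM-like cells were also split by their markers, a choice made after the data were seen.

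In TAM-like cells with 0 microglia markers (198 WT, 381 CaMKK2 KO), Mrc1 stood at 35.8 CPM in the WT and 29.9 CPM in the CaMKK2 KO mice and Stab1 at 112 and 107 CPM, with log2 fold changes of -0.08 and -0.02. Gas6 there was 7.65 ± 6.49 CPM in the WT and 1.00 ± 0.81 CPM in the CaMKK2 KO mice, on 23 UMIs in all (exact permutation test, p = 0.0857). In cells with 3 or more classical monocyte markers (652 WT, 934 CaMKK2 KO) the Mrc1 log2 fold change was -0.13 (SE 0.55). That of Stab1 was -0.34 (SE 0.29). In cells with up to 2 such markers (1126 WT, 430 CaMKK2 KO, as few as 22 in a mouse), Mrc1 stood at -1.14 (SE 0.38, edgeR adjusted p = 0.173). Stab1 stood at -0.73 (SE 0.28, adjusted p = 0.214) and Gas6 at -1.72 (SE 0.45, adjusted p = 0.0994). The Mrc1 and Stab1 differences were, of these 3 subsets, largest in the cells with few monocyte markers, and Mertk gave -0.39 both with up to 2 and with 3 or more such markers and -0.14 in cells with 0 microglia markers. The difference between subsets was not tested.

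**Figure D3:**
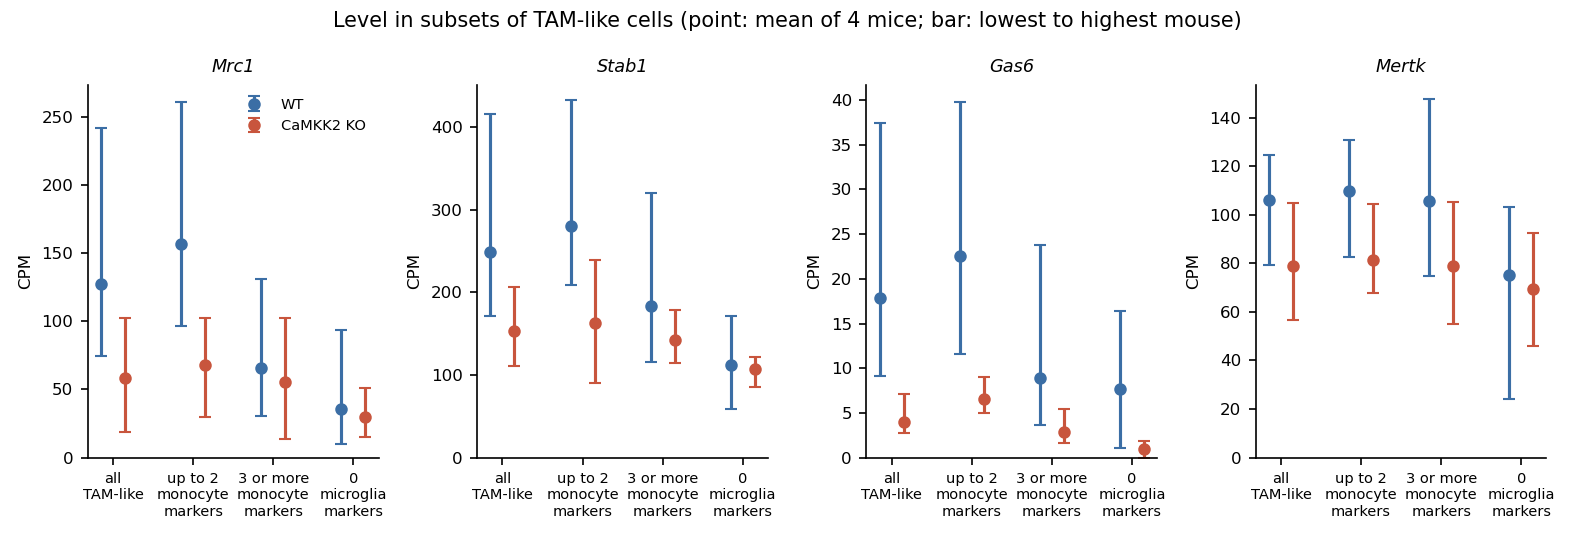
Levels of Mrc1, Stab1, Gas6 and Mertk (CPM) in all TAM-like cells and in subsets chosen by detected classical monocyte or microglia markers, as the mean of 4 mice with a bar from the lowest to the highest mouse. Mrc1 and Stab1 overlapped between genotypes in all TAM-like cells and in every subset shown.

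Sequence upstream of Mrc1, Stab1 and Gas6, the genes with the lowest fold changes in both TAM-like and microglia-like cells, is shown because the factor PU.1, which binds sites built on GAGGAA, is a main regulator of macrophage genes. These are the 250 bases before the annotated start, from RefSeq (GRCm38.p6), 5′ to 3′ on the gene's strand, with GAGGAA or its reverse complement TTCCTC in capitals.
Mrc1, chr2:14229164-14229413, plus strand: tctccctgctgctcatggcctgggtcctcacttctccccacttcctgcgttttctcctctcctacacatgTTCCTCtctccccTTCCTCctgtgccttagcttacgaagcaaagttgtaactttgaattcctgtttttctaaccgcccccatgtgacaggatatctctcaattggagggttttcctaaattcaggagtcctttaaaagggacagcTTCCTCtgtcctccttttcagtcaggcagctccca
Stab1, chr14:31168642-31168891, minus strand: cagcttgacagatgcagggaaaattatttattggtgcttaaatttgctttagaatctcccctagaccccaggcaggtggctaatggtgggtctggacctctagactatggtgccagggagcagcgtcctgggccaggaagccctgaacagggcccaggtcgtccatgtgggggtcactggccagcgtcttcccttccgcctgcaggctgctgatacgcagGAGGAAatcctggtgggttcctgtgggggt
Gas6, chr8:13494536-13494785, minus strand: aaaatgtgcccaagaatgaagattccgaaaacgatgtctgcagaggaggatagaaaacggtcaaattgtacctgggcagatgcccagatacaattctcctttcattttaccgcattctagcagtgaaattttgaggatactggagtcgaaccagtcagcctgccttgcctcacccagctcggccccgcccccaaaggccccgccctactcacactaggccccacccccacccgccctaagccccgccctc
The letters occurred 3 times upstream of Mrc1, with first bases 180, 167 and 35 bases from the start, and 1 time upstream of Stab1, at 30 bases. They did not occur in the Gas6 window. Of the 7 members with an entry, 3 held them (Mrc1, Stab1 and Axl), against 23.3% of 32851 windows of this length. A match is a description of letters, not a site.

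In microglia-like cells 0 of 7 tested genes passed, against 1.66% of 5061 genes, and 3 of 7 had an unadjusted p under 0.05, against 15.6% of all genes. Gas6 was the 1 of 7 tested genes with no overlap, against 9.84% of all genes. DESeq2 called Gas6 and 2.15% of all genes, and gave Mrc1 no adjusted p. Gas6 was 237, 240, 207 and 178 CPM in the WT mice and 142, 39.1, 143 and 64.6 CPM in the CaMKK2 KO mice. All WT mice were above all CaMKK2 KO mice, of which mice 2 and 4 were lowest. The log2 fold change was -1.08 (SE 0.29, edgeR adjusted p = 0.0915), with means of 215 ± 29.0 and 97.2 ± 53.4 CPM (exact permutation test, p = 0.0286). Over the planned settings that kept all mice the adjusted p ranged from 8.92e-06 to 0.109. With 1 mouse left out the edgeR adjusted p ranged from 0.0561 to 0.233 and never passed.

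Mrc1 in microglia-like cells was 70.1, 33.9, 25.3 and 47.6 CPM in the WT mice and 17.8, 0, 28.2 and 0 CPM in the CaMKK2 KO mice. The groups overlapped, as CaMKK2 KO mouse 3 was above WT mouse 3. The log2 fold change was -1.62 (SE 0.54, edgeR adjusted p = 0.166). It was -2.67 (adjusted p = 0.0759) without CaMKK2 KO mouse 3 and -3.07 (0.154) with limma on mean CPM, and with no filter on low counts the same fold change had an adjusted p of 7.17e-05. Stab1 was 363, 280, 149 and 198 CPM in the WT and 179, 70.4, 145 and 103 CPM in the CaMKK2 KO mice, at -0.99 (SE 0.29, adjusted p = 0.112), and also overlapped. Microglia markers summed to 2976 to 5071 CPM in the WT and to 3028 to 5110 CPM in CaMKK2 KO microglia-like cells, while border-associated macrophage markers summed to 4.60 to 20.6 CPM and to 0 to 3.55 CPM, with Lyve1 and Cd209f at 0. Mature dendritic cell markers summed to 50.6 to 66.0 CPM and to 83.5 to 116 CPM there, with the 1 tested, Fscn1, past the threshold.

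The efferocytic kinases and Pros1 did not pass the test in microglia-like cells. Mertk was 268, 313, 294 and 247 CPM in the WT and 309, 316, 300.0 and 287 CPM in the CaMKK2 KO mice, for a log2 fold change of 0.11 (SE 0.13, adjusted p = 0.712). Pros1 was 112, 127, 108 and 126 CPM in the WT and 130, 162, 152 and 116 CPM in the CaMKK2 KO mice, so the groups overlapped for both genes. Its log2 fold change was 0.24 (SE 0.15, adjusted p = 0.442), while Axl stood at 0.20 (SE 0.21, adjusted p = 0.680) and Msr1 at -0.68 (SE 0.36, adjusted p = 0.389), the last being -0.16 without WT mouse 1. The median log2 fold change of all genes in this class was -0.11, and it was -0.01 with DESeq2 size factors.

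Cd36 was the member with a higher level in all CaMKK2 KO mice in microglia-like cells. It was 0.44, 3.63, 6.90 and 9.21 CPM in the WT mice and 17.8, 175, 21.1 and 31.0 CPM in the CaMKK2 KO mice. The groups did not overlap, and CaMKK2 KO mouse 2 was far above the others. The gene had 126 UMIs, too few for the 200 required for the fit, and the exact permutation test gave p = 0.0286, unadjusted. Genes below that count were not part of the share of all genes with no overlap. A Cd36 UMI was found in 1 of 147, 1 of 108, 3 of 29 and 3 of 44 WT cells and in 7 of 37, 13 of 21, 11 of 62 and 8 of 31 CaMKK2 KO cells. Classical monocyte markers in these cells summed to 86.1 to 782 CPM in the WT and to 470 to 1461 CPM in the CaMKK2 KO mice. Cd36 itself was 1.72 to 6.81 CPM in CaMKK2 KO classical monocyte-like cells. Markers of non-classical monocytes, the class with the highest Cd36 mean, summed in microglia-like cells to 12.4 to 36.8 CPM in the WT mice. In the CaMKK2 KO mice they summed to 20.7 to 47.3 CPM. The part of either class in the Cd36 values was not tested.

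**Figure D4:**
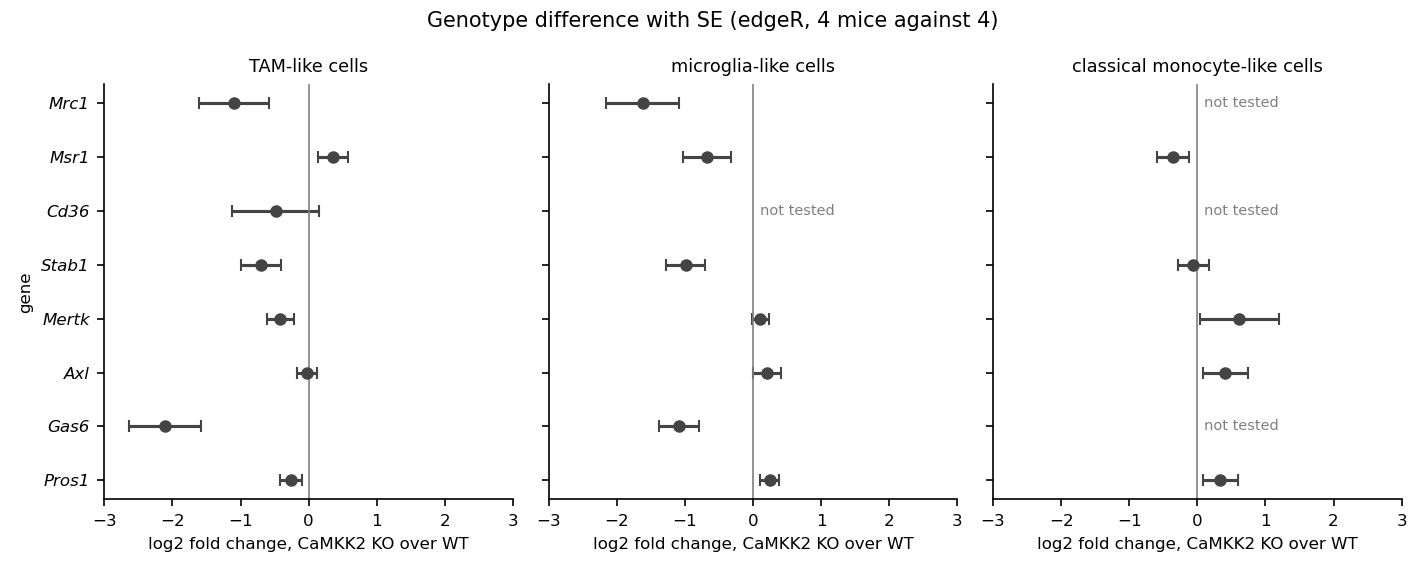
Log2 fold change of CaMKK2 KO against WT for each fitted gene in TAM-like, microglia-like and classical monocyte-like cells. Bars give a standard error (SE) derived from the edgeR test statistic. Gas6 stood at -2.10 in TAM-like and -1.08 in microglia-like cells, and no gene passed an adjusted p of 0.05.

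In classical monocyte-like cells 0 of 5 tested genes passed, against 1.66% of 6148 genes, and 0 had an unadjusted p under 0.05, against 15.2% of all genes. The mice of the genotypes were apart for 0 of 5, against 9.16% of all genes, and DESeq2 called none of the 5. Axl was 39.0, 120, 128 and 196 CPM in the WT and 147, 117, 175 and 240 CPM in the CaMKK2 KO mice, for a log2 fold change of 0.41 (SE 0.33, adjusted p = 0.629). Mertk stood at 0.62 (SE 0.58), Pros1 at 0.34 (SE 0.26), Msr1 at -0.36 (SE 0.23) and Stab1 at -0.06 (SE 0.23). In T cell-like cells Axl was the 1 gene tested and stood at 0.34 (SE 0.24, edgeR adjusted p = 0.507), against 1.48% of 7183 genes called.

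Whether the genotype difference itself differed between TAM-like and microglia-like or classical monocyte-like cells was asked in 16 exact permutation tests. None passed, and 0 had an unadjusted p under 0.05. The lowest adjusted p was 0.229, but a single gene at 0.0286, the smallest p of 4 mice against 4, would adjust to 0.457, so these tests could not show a difference in 1 gene alone.

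Shares of cells with a UMI, thinned to 3000 UMIs per cell, gave the same order for Gas6. In TAM-like cells the share was 4.78% ± 3.01 in WT and 0.949% ± 0.769 in CaMKK2 KO mice (exact permutation test, n = 4 each, p = 0.0286), and 15.6% and 4.37% unthinned. In T cell-like cells, which should lack the gene, the share was 0.229% and 0.191% thinned but 0.802% and 0.181% unthinned. The Gas6 level was 0.771 and 0.230 CPM in T cell-like cells (8 UMIs) and 0.586 and 0.0783 CPM in NK cell-like cells (5 UMIs). The means of these background values were thus also lower in CaMKK2 KO mice, on few UMIs. The mice of the genotypes overlapped in T cell-like and in NK cell-like cells (exact permutation tests, p = 0.257 and 0.143). Classical monocyte-like cells held 1 Gas6 UMI and B cell-like cells 0. In microglia-like cells the Gas6 share was 47.4% ± 3.11 in WT and 25.7% ± 14.8 in CaMKK2 KO mice (exact permutation test, n = 4 each, p = 0.0286), and 81.2% and 55.4% unthinned. Median depth was 15818 and 15851 UMIs in TAM-like, 13705.5 and 14146 in microglia-like and 8979 and 8746 in T cell-like cells of WT and CaMKK2 KO mice. Cd36 in microglia-like cells was detected in 0.234% ± 0.467 of WT and 9.74% ± 6.57 of CaMKK2 KO cells after thinning and in 4.69% and 31.1% before it. Thinned T cell-like cells gave 0.120% in WT and 0% in CaMKK2 KO mice. Thinned B cell-like cells gave 0.714% and 4.08% (medians of 3553 and 5016 UMIs). Mrc1 in microglia-like cells was detected in 6.75% ± 2.76 of WT and 1.48% ± 1.72 of CaMKK2 KO cells after thinning, and in 21.6% and 6.60% before it, against 0.470% and 0.270% of thinned T cell-like cells. Neither gene overlapped between genotypes on this measure (exact permutation tests, n = 4 each, p = 0.0286 for both), although Mrc1 overlapped on CPM. The p-values of these shares were not adjusted, and the share of all genes apart on this measure was not counted. The Mertk share was 53.4% and 53.2% in microglia-like cells and 26.7% ± 5.79 and 18.0% ± 5.93 in TAM-like cells (exact permutation test, n = 4 each, p = 0.0571).

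The other genes of uptake and its sequel were read from 7 lists of 62 genes in all, chosen with earlier results of these data known. In TAM-like cells 43 were tested, and in the knockout 0 passed as higher and 3 as lower, with a median log2 fold change of -0.18, against 2.28% called and a median of -0.09 over all genes. Of the 214 genes called in this class, 135 were lower. Thbs1, the matricellular protein thrombospondin-1, which bridges dead cells to CD36 and integrins, fell from 363 ± 115 to 65.6 ± 11.5 CPM (SD, n = 4 each), a log2 fold change of -2.47 (SE 0.23, edgeR adjusted p = 0.000632). Itgav, the integrin alpha V chain of vitronectin receptors, fell from 78.8 ± 6.51 to 43.5 ± 3.18 CPM, at -0.85 (SE 0.09, edgeR adjusted p = 0.0015). Both belonged to the list of other recognition receptors and bridging factors, with 2 of 11 tested lower. Scarb2, a lysosomal membrane protein of the CD36 family, was the 1 of 5 tested other scavenger receptors that fell, from 116 ± 8.44 to 62.8 ± 7.58 CPM, at -0.88 (SE 0.10, edgeR adjusted p = 0.00239).

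In the remaining lists no gene passed in TAM-like cells. Of 11 engulfment genes tested, Elmo1, part of the Rac activating complex, had the largest difference at -0.48 (edgeR adjusted p = 0.0624). Of 10 lipid handling genes it was Nr1h3, the sterol-sensing receptor LXR alpha, at 1.24 (0.209), although the median of that list was -0.34. Of 4 tested don't-eat-me genes it was Cd24a at -1.04 (0.197), although the median of those genes was 0.28. Of 2 sheddases it was Adam17 at 0.08 (0.744). None of the 3 mannose receptor family genes had enough UMIs. In TAM-like cells with 0 microglia markers (198 WT, 381 CaMKK2 KO) 1 of the 3 calls remained, that of Thbs1. Itgav (-0.81, edgeR adjusted p = 0.0967) and Scarb2 (-0.78, 0.0566) did not pass there, against -0.85 and -0.88 in all TAM-like cells. All 3 calls remained in cells with up to 2 and in cells with 3 or more classical monocyte markers.

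In microglia-like cells 33 listed genes were tested, and 1 fell, against 1.66% of all genes called. This was Thbs1, from 99.1 to 33.4 CPM (log2 fold change -1.59, edgeR adjusted p = 0.0477). That call was lost when any 1 of WT mice 1, 3 and 4 or CaMKK2 KO mice 1, 3 and 4 was left out, with adjusted p up to 0.145, and also with TMM scaling, outlying cells kept, doublets kept, limma or the stricter gate, which gave -0.79 (0.349). In classical monocyte-like cells 39 were tested, 1 of them higher and 2 of them lower, again against 1.66% of all genes called. Thbs1 fell from 2121 ± 1215 to 195 ± 123 CPM (-3.45, edgeR adjusted p = 0.0119) and Scarb2 fell by 0.70 on the log2 scale (adjusted p = 0.0428). Cxcl16, a transmembrane chemokine that also binds oxidised lipoprotein, rose from 254 ± 76.4 to 590 ± 153 CPM (1.20, adjusted p = 0.0407), and it is named here after its values were seen. Of the 6 markers of this class, 2 (Ly6c2 and Vcan) passed the threshold between genotypes. Neutrophil markers summed to 74.8 to 2136 CPM in the WT and to 83.4 to 150 CPM in the CaMKK2 KO mice. The part of such marker differences in these values was not tested. The Thbs1 call was lost without CaMKK2 KO mouse 2 (adjusted p = 0.0538). That of Scarb2 was lost without any 1 of WT mice 2 and 3 and CaMKK2 KO mice 1, 2 and 4 (up to 0.152). Limma on mean CPM also lost it (0.180). The Cxcl16 call was lost without any 1 of WT mice 1, 2 and 3 and CaMKK2 KO mice 2 and 4 (up to 0.140). It was also lost with limma or the stricter gate (up to 0.0919).

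**Figure D5:**
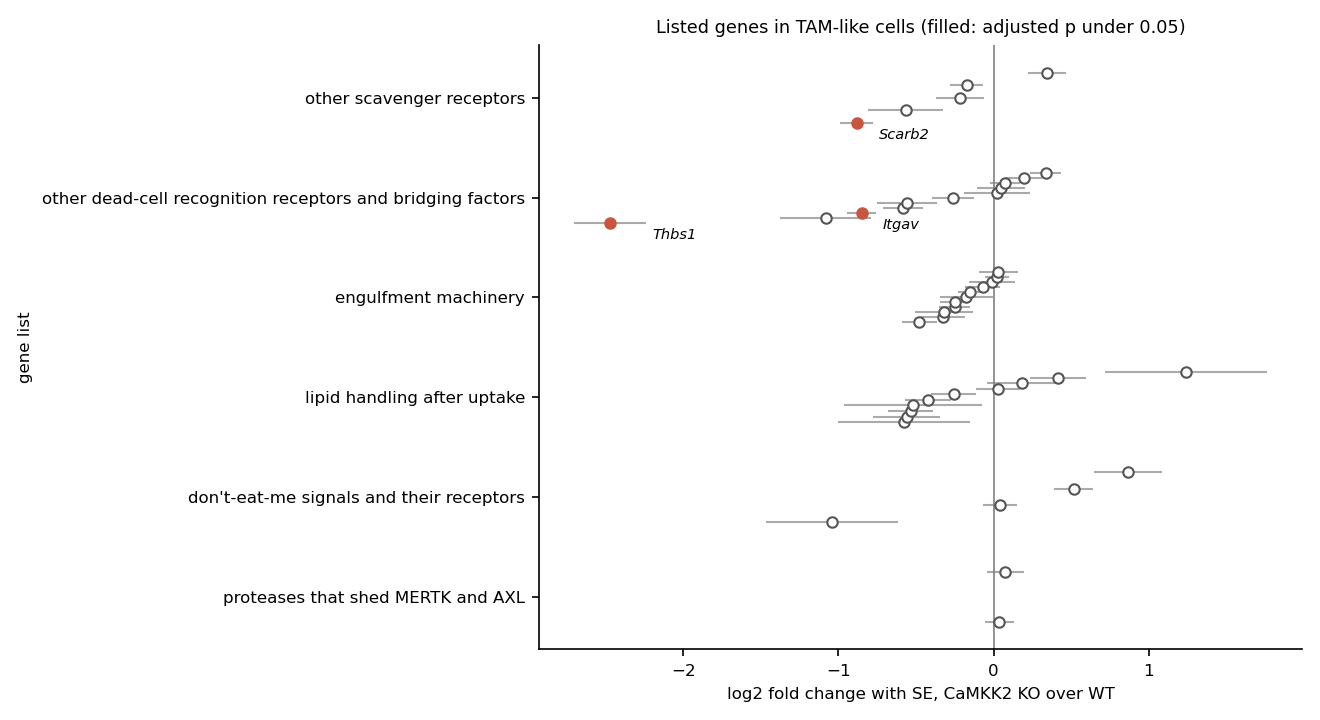
Log2 fold change of CaMKK2 KO against WT for each tested gene of the pathway lists in TAM-like cells, with bars for the SE and filled points for an adjusted p under 0.05. The 3 filled points are Thbs1, Itgav and Scarb2, all lower in CaMKK2 KO cells.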

How the data were processed

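Live CD45+ cells of 4 WT and 4 CaMKK2 KO mice were profiled in 1 10x channel per genotype. The authors deposited UMI counts per gene and barcode and hashtag counts, made, per the labels, with bcl2fastq 2.20, Cell Ranger 4.0.0 and STAR 2.7.5c on mm10. Mice were separated with HTODemux (Seurat 5.3.0, quantile 0.99). Cells beyond 3 median absolute deviations (scuttle 1.12.0) were removed. Scrublet's own caller marked 0.0957% and 0.347% of cells and so did not work, and the 227 and 174 cells with the highest scores were removed as same-mouse doublets. Classes required 3 to 5 detected markers, with the scoring rule set after the data were seen. Members and lists were chosen with earlier results of these data known. Named pathway genes were those past an adjusted p of 0.05 in TAM-like cells, otherwise the 1 with the largest change in a list. Sums of UMIs over the cells of a class in each mouse were fitted with edgeR 4.0.16 (at least 200 UMIs, class totals as library sizes, R 4.3.3), after a check on simulated data. The SE of an edgeR fold change was its absolute log2 value divided by the square root of the F statistic of the test. DESeq2 1.42.0, limma 3.58.1, TMM, other filters, gates and left-out mice were alternatives. Hashtags mark separate mice of 1 channel, so p-values measure spread between mice, and intervals of counts cover counting error only.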

Additional observations from a re-analysis of the deposited data

Results flagged for a closer look

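In groups of 4 mice, 1 mouse stood far from the other 3 in 5 of 47 groups tested, where chance gives about 1 in 20. Cd36 in microglia-like cells was 175 CPM in CaMKK2 KO mouse 2, against 17.8 to 31.0 CPM in the others. Cd36 in classical monocyte-like cells was 9.75 CPM in WT mouse 1, against 2.76 to 3.85 CPM. Axl in TAM-like cells was 194 CPM in WT mouse 1, against 268 to 281 CPM. Gas6 in TAM-like cells was 7.07 CPM in CaMKK2 KO mouse 3, against 2.72 to 3.27 CPM. Gas6 in classical monocyte-like cells was 0.428 CPM in WT mouse 3 and 0 in the other WT mice. This last value was 1 UMI in 208 cells, and against 3 mice at 0 any count would stand apart, so it says nothing of an unusual mouse.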

How the results depend on the processing

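No paired analysis was possible because the labels give no replicate numbers and the hashtags mark different mice in separate channels. Among members, 1 was called in TAM-like cells with DESeq2, with no filter and with limma on mean CPM (Gas6 each time), against 0 in the reported fit. In microglia-like cells 1 was called with DESeq2 (Gas6), 1 at 50 UMIs and 1 with outlying cells kept (Cd36), and 4 with no filter. Of the listed pathway genes, TAM-like calls went from 3 to 10 with DESeq2, 6 with no filter and 1 in cells with 0 microglia markers, and to 3 to 5 with 1 mouse left out. Microglia-like calls went from 1 to 0 with TMM, outlying cells kept, doublets kept, the stricter gate or limma, to 2 with no filter, and to 0 to 1 with 1 mouse left out. Classical monocyte-like calls went from 3 to 6 with DESeq2, 7 with no filter and 1 with limma, and to 0 to 4 with 1 mouse left out. Over all genes, calls were 214 in TAM-like cells, 581 with DESeq2 and 416 with no filter; 84 in microglia-like cells and 416 with no filter; and 102 in classical monocyte-like cells, 239 with DESeq2, 352 with no filter and 51 with limma. With 1 mouse left out the calls over all genes were 102 to 286, 35 to 89 and 34 to 149 in these classes. Neighbouring classes past the threshold went from 0 to 13 with the stricter gate, which ranked fewer classes and so adjusted p over fewer pairs. The sign reversed for Axl in TAM-like cells (0.0521 with DESeq2, 0.0563 with TMM, 0.10 with 0 microglia markers, 0.073 with up to 2 monocyte markers, -0.14 to 0.0643 without 1 mouse), Cd36 (0.0047 with up to 2 monocyte markers, -0.94 to 0.19 without 1 mouse), Pros1 (0.0862 with up to 2 monocyte markers), Stab1 in classical monocyte-like cells (-0.19 to 0.11) and Adam17 (-0.0161 to 0.14). The causes were not tested. Of single-gene values 480 kept direction and side of the threshold. Few microglia-like cells per mouse limit that class.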
